A study of Homo sapiens with 4 samples.

Results

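RBPJ, MAML1, MAML2, MAML3, LFNG, MFNG, RFNG, NRARP, NUMB and DTX1 encode nuclear cofactors and modulators of Notch signaling, and open chromatin was compared around these 10 genes. Their regions were found by merging the peaks of 4 ATAC-seq lists and keeping every merged region that overlapped 1 of the gene bodies (GENCODE release 44) extended by 20 kb on each side. This gave 180 of 164301 merged regions, and no region fell to more than 1 of the genes. ATAC-seq (assay for transposase-accessible chromatin using sequencing) reads where a transposase can enter DNA, so a peak marks accessible chromatin and not the activity of a gene. The cells were pancreatic progenitors derived from MEL1, a single human embryonic stem cell (hESC) line, which the study's methods name MEL1 INS GFP/W, a reporter line with GFP at the insulin gene. All were kept in EF6 medium (DMEM with B27, EGF, bFGF and 616452, an inhibitor of the TGFβ receptor). For 7 days the medium contained either DMSO, the solvent control, or 1 μM I-BET151, a small molecule that blocks the acetyl-lysine pocket of the BET proteins. There were 2 libraries per condition, each from 50000 cells. The labels do not say that the libraries came from separate cultures, so p-values measure only the spread between these libraries.

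Notch receptors are cut when they bind a ligand on a neighboring cell, and the freed intracellular domain enters the nucleus. There it joins the DNA-binding protein RBPJ and a Mastermind-like coactivator (MAML1, MAML2 or MAML3), and without it RBPJ keeps targets silent with corepressors. The Fringe glycosyltransferases (LFNG, MFNG and RFNG) change which ligands a receptor answers to, NRARP is a target gene that acts back on the nuclear complex, NUMB counters the receptor by endocytosis, and DTX1 is an E3 ubiquitin ligase that acts on it. In the developing pancreas Notch signaling is known for holding progenitors back from endocrine differentiation.

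The lists were unequal, which touches every count given here. They held 82568 and 38295 peaks with DMSO and 84995 and 111324 with I-BET151. The background of each list corresponded to 38.7 and 36.6 M reads with DMSO and to 12.5 and 16 M with I-BET151, so the number of reads cannot be told apart from the treatment. Fold enrichment here is the height of a peak over its local background as the peak caller gives it. Over the 25627 regions called in all 4 lists, its log2 value was higher with I-BET151 by a median of 0.83, and 98.8% of these regions were higher. Each region was therefore also ranked within its own list (percentile by fold, 100 being the strongest). Promoters of 10 pancreatic progenitor markers were called in 8 and 7 cases with DMSO and in 9 and 9 with I-BET151, against 1, 1, 1 and 2 of 6 pluripotency promoters. Of all 20033 protein-coding promoters, the lists held 12241, 11236, 13318 and 14095 in the same order. Promoters of 8 endocrine markers were called in 3, 1, 4 and 3 cases, and those of 6 mesenchymal markers in 2, 2, 3 and 4. Those of 5 liver markers were called in 3, 2, 2 and 2 cases, and those of 4 acinar markers in 1 case in each list. The part of other cell types in the results was not tested.

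The 2 promoter windows that follow belong to the promoters that differed most between the lists. Both are hg38, cover the 200 bases before the canonical transcription start site (TSS), and are written on the strand of the gene with CG dinucleotides in capitals. The MAML2 window is chr11:96343196-96343395 (minus strand), from a promoter that was called in all 4 lists and had the largest positive rank shift among such promoters, which did not pass the test. The LFNG window is chr7:2519574-2519773 (plus strand), from a promoter called in both I-BET151 lists and neither DMSO list. The MAML2 window holds 10 CG dinucleotides, and the LFNG window holds 29 and, 2 times, CACGTG, an E-box word that many bHLH factors bind.
MAML2 promoter: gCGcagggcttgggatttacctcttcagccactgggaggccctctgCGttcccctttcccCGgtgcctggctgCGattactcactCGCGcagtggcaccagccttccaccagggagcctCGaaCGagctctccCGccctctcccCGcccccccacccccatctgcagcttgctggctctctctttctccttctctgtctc
LFNG promoter: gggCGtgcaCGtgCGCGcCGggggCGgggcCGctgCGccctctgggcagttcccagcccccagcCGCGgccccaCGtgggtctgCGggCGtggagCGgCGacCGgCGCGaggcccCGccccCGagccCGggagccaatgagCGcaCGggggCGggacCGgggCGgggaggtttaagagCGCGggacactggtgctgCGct

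The 2 distal windows are the centers of the strongest regions at RBPJ and MAML3 found in each I-BET151 list and in no DMSO list, written on the strand of the gene with the summit base in capitals. They are chr4:26252607-26252727 (plus strand) at RBPJ and chr4:139849372-139849492 (minus strand) in intron 2 of MAML3.
RBPJ distal region: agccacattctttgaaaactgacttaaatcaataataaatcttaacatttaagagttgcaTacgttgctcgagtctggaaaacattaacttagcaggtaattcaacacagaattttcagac
MAML3 distal region: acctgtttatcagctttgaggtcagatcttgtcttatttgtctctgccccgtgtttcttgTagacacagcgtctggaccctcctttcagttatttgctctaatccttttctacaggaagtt

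The words GTGGGAA and GTGAGAA, which RBPJ is known to bind, were searched on both strands in the 200 bases around each summit. They are shown because the genes encode the complex that reads them, and each occurrence in a region that both I-BET151 lists and neither DMSO list held (called gained here) is printed with 30 bases on either side and the word in capitals, on the strand on which it reads as spelled. At MAML2 the stretches are chr11:96194203-96194269 and chr11:96254268-96254334 (both plus strand), and at MAML3 they are chr4:139746603-139746669 (minus strand), chr4:139761668-139761734 (plus strand) and chr4:140116916-140116982 (minus strand).
MAML2 GTGGGAA: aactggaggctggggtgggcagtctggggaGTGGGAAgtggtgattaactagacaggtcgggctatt
MAML2 GTGAGAA: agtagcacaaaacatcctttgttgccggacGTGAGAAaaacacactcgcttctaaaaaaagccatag
MAML3 GTGGGAA: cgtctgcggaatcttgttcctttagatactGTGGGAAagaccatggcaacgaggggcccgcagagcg
MAML3 GTGAGAA, first: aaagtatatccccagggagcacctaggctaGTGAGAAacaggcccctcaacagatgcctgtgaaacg
MAML3 GTGAGAA, second: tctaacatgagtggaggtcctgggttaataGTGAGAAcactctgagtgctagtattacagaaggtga

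Either word was present in 19 of the 180 regions (10.6%), against 8.61% of all merged regions. It was present in 5 of the 47 gained regions (10.6%, against 8.87% of all gained regions) and in 4 of the 33 called in all 4 lists (12.1%, against 7.4%). CACGTG was found in 4 of the 180 (2.22%, against 3.01%), and the CTCF consensus in 2 (1.11%, against 1.86%). The median GC content of the 200-base windows was 47.5% in the 33 regions called in all 4 lists, against 55.5% over all such regions, and 45.5% in the 47 gained regions, against 45%. These shares are descriptions of letters and say nothing about binding.

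More regions at the 10 genes were called with I-BET151 than with DMSO, as over the whole genome. The DMSO lists held 75 and 44 of the 180 regions, and the I-BET151 lists held 107 and 142. Of all 164301 merged regions the lists held 78671, 37658, 80816 and 111206 in the same order. A region is called lost if both DMSO lists and neither I-BET151 list held it. There were 47 gained regions (26.1%), while 17% of all merged regions and 16.3% of those within 20 kb of a protein-coding gene were gained. There were 2 lost regions (1.11%), against 2.37% and 2.41%. All 4 lists held 33 regions (18.3%, against 15.6% of all merged regions), and the other 98 had mixed patterns.

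The gained share came closer to that of all regions with lists of equal length and at −log10 p of at least 10, and the cause was not tested. At −log10 p of at least 5 it did not, with 46 of 161 regions gained (28.6%, against 18.1% of all regions). With each list cut to its 38295 most significant peaks, 8 of 74 regions were gained (10.8%, against 9.19% of all regions) and 2 were lost (2.7%, against 5.85%). These 8 lay at RBPJ (3), MAML3 (3), RFNG (1) and DTX1 (1), and none lay at MAML2, where 13 were gained before. Among peaks with −log10 p of at least 10, 21 of 86 were gained (24.4%, against 23.3%). Within replicate 1, 63 regions were called with I-BET151 only and 31 with DMSO only, and within replicate 2 these were 102 and 4. Over all merged regions the same counts were 46196 and 44051 within replicate 1 and 79854 and 6306 within replicate 2. The short DMSO replicate 2 list weighed most on the lost regions: without it 22 of 178 were lost (12.4%, against 20.7%) and 49 were gained (27.5%, against 18.3%). Without DMSO replicate 1, 4 were lost (2.5%, against 4.52%) and 58 gained (36.2%, against 26.8%). Without I-BET151 replicate 2, 5 were lost (3.52%, against 5.75%) and 61 gained (43%, against 34.8%). Without I-BET151 replicate 1, 85 of 166 were gained (51.2%, against 43.7%).

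Of the 10 genes, 9 had at least 1 gained region (59.1% of all genes with a region did) and 2 had a lost one (17.9%). These shares were not matched for the number of regions, which was 4 to 62 at the 10 genes. The median over all genes was 6, and a locus with more regions has more occasions to hold a gained one. Numbers of regions did not follow gene length throughout, as NUMB (183511 bp) and DTX1 (41299 bp) held 11 each. MAML2, MAML3 and RBPJ, whose bodies span the longest stretches, held 127 of the 180 regions and 35 of the 47 gained ones. The gained share was 27.6% at these 3 genes and 22.6% at the other 7. Of the gained regions, 33 lay in introns of the canonical transcript, 7 downstream, 7 upstream, and 42 had their summit more than 10 kb from the canonical TSS. Only 1 of the 47 was the promoter region at the canonical TSS of its gene. With that region included, 3 lay within 1 kb of any coding TSS of their own gene, and 1 lay at the promoter of another gene. Peak heights in the gained regions were modest. The fold ranged from 3.62 to 10.9 with a median of 5.33 in I-BET151 replicate 1, and from 3.04 to 15.3 with a median of 5.56 in replicate 2, while all gained regions had medians of 5.39 and 6.0. At the summits stood 6 to 29 reads in replicate 1 and 9 to 45 in replicate 2, counts that carry a counting error of their own.

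RBPJ, the DNA-binding subunit through which the complex finds its targets, had an open promoter under both conditions. Its promoter region (chr4:26319132-26321185, summit 210 bp before the TSS) had folds of 5.17 and 6.09 with DMSO and of 7.99 and 8.12 with I-BET151. Both I-BET151 folds were higher, but within the lists the region stood at percentiles of 80.1 and 84.1 with DMSO and 76.6 and 71.9 with I-BET151. Its rank did not shift past the threshold (shift of −0.73 in normal scores, SE 0.41, limma adjusted p = 0.278).

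RBPJ held 24 regions, 7 of them gained, 8 called in all 4 lists and none lost. The strongest gained region (chr4:26252435-26252888) lay 68.3 kb upstream of the canonical TSS, inside the span of longer RBPJ transcripts, with folds of 8.91 and 15.3. It stood at the 82.6 and 98.0 percentile of the I-BET151 lists. The next (chr4:26161214-26161938), 159 kb upstream of that TSS, had folds of 10.9 and 8.77. The other 5 gained regions had folds of 4.41 to 5.81 in replicate 1 and 4.49 to 5.96 in replicate 2. In intron 1, a region called in all 4 lists (chr4:26342252-26342835) lay 21.6 kb after the canonical TSS, within 1 kb of the start of another coding transcript of RBPJ. Its folds were 4.92 and 4.81 with DMSO and 9.79 and 14.6 with I-BET151, with a rank shift of 0.82 ± 0.40 (SE, limma adjusted p = 0.223). A region 147 kb upstream (chr4:26173762-26174516), which held a GTGAGAA word, had folds of 5.45 and 5.47 with DMSO and 6.75 and 8.39 with I-BET151 with a rank shift of −0.84 (SE 0.38, limma adjusted p = 0.183). Within RBPJ, 4 of the 8 regions called in all lists had a positive and 4 a negative rank shift.

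MAML1, the first described of the Mastermind-like coactivators, was the gene without a gained or a lost region. Its promoter region (chr5:179732323-179733641, summit 76 bp before the TSS) was among the strongest in every list, with folds of 10.0 and 9.46 with DMSO and 13 and 14.6 with I-BET151 and percentiles between 96.4 and 99.1. The rank shift was −0.62 (SE 0.38, limma adjusted p = 0.316). The largest rank shift at any of the 10 genes lay 63.5 kb after the MAML1 TSS, downstream of the gene (chr5:179795294-179796853). There the folds were 2.76 and 3.42 with DMSO and 6.91 and 8.85 with I-BET151, and the percentiles were 3.83 and 26.9 with DMSO and 67.3 and 77.4 with I-BET151. The shift of 1.32 ± 0.44 (SE) did not pass the threshold (limma adjusted p = 0.0867). It passed without I-BET151 replicate 2 (limma adjusted p = 0.0475), a fit in which the lone I-BET151 library is assumed to vary like the DMSO libraries. No region at the 10 genes passed when any of the other libraries was left out.

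MAML2, a coactivator of the same family, had the promoter whose libraries differed most between the conditions. Its promoter region (chr11:96342825-96343692, summit 195 bp before the TSS) had folds of 4.81 and 4.58 with DMSO and of 11.4 and 13.6 with I-BET151. The reads at its summit were 27 and 26 with DMSO and 47 and 90 with I-BET151. At the RBPJ promoter they were 45 and 55 against 61 and 139, and at NUMB 69 and 67 against 90 and 184. At the MAML1 promoter they were 67 and 66 against 64 and 151. The percentiles of the MAML2 promoter were 75.1 and 63.2 with DMSO and 92.7 and 95.6 with I-BET151. This was a rank shift of 1.00 ± 0.38 (SE) with an unadjusted limma p of 0.0178 and an adjusted p of 0.119. The 13 gained regions of MAML2 were all intronic, 10 in intron 1 and 3 in intron 2, between 5.51 and 314 kb after the TSS. The strongest were chr11:96062290-96062671 in intron 2, with folds of 7.77 and 8.26, and chr11:96134732-96135089 in intron 1, with folds of 5.83 and 12.0. A strong region in intron 2 (chr11:96012091-96012661), was called in all lists with folds of 8.47, 8.40, 14.0 and 17.1 and kept percentiles between 95.2 and 99.2. Its window holds both GTGAGAA and CACGTG.

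MAML3, the remaining Mastermind-like gene, had the largest locus, with 62 regions of which 15 were gained, 1 was lost and 12 were called in all lists. Its promoter region (chr4:140154105-140154593, summit 132 bp before the TSS) was not called in DMSO replicate 1 and had folds of 2.95 in DMSO replicate 2 and of 3.73 and 4.62 with I-BET151. It stood between the 7.61 and 25.8 percentile where it was called, low in each of these lists. A broader region in intron 1, 2.27 kb after the TSS (chr4:140150392-140152357), was called in all lists with folds of 4.40, 4.56, 5.27 and 6.18 and had the lowest rank shift of the 33, −0.93 (SE 0.38, limma adjusted p = 0.147).

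The 15 gained regions of MAML3 were all intronic, 9 in intron 1 and 6 in intron 2. The strongest (chr4:139849234-139849687, intron 2) had folds of 9.59 and 8.11, and chr4:139907043-139907564 in intron 1 had folds of 6.07 and 6.63. Deep in intron 1, 232 kb after the TSS, a region with a CACGTG word (chr4:139921455-139922216) had folds of 4.75 and 6.20 with DMSO and 13.3 and 15.0 with I-BET151, and percentiles of 74.5 and 84.9 against 97.0 and 97.7, with a rank shift of 1.05 ± 0.42 (SE, limma adjusted p = 0.135). The lost region (chr4:139719546-139720166) had its summit in the coding part of exon 5 and was weak, with folds of 3.45 and 2.95 and 15 and 14 reads. Together the 3 MAML genes held 110 regions, 28 of them gained and 22 called in all lists.

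**Figure D1:**
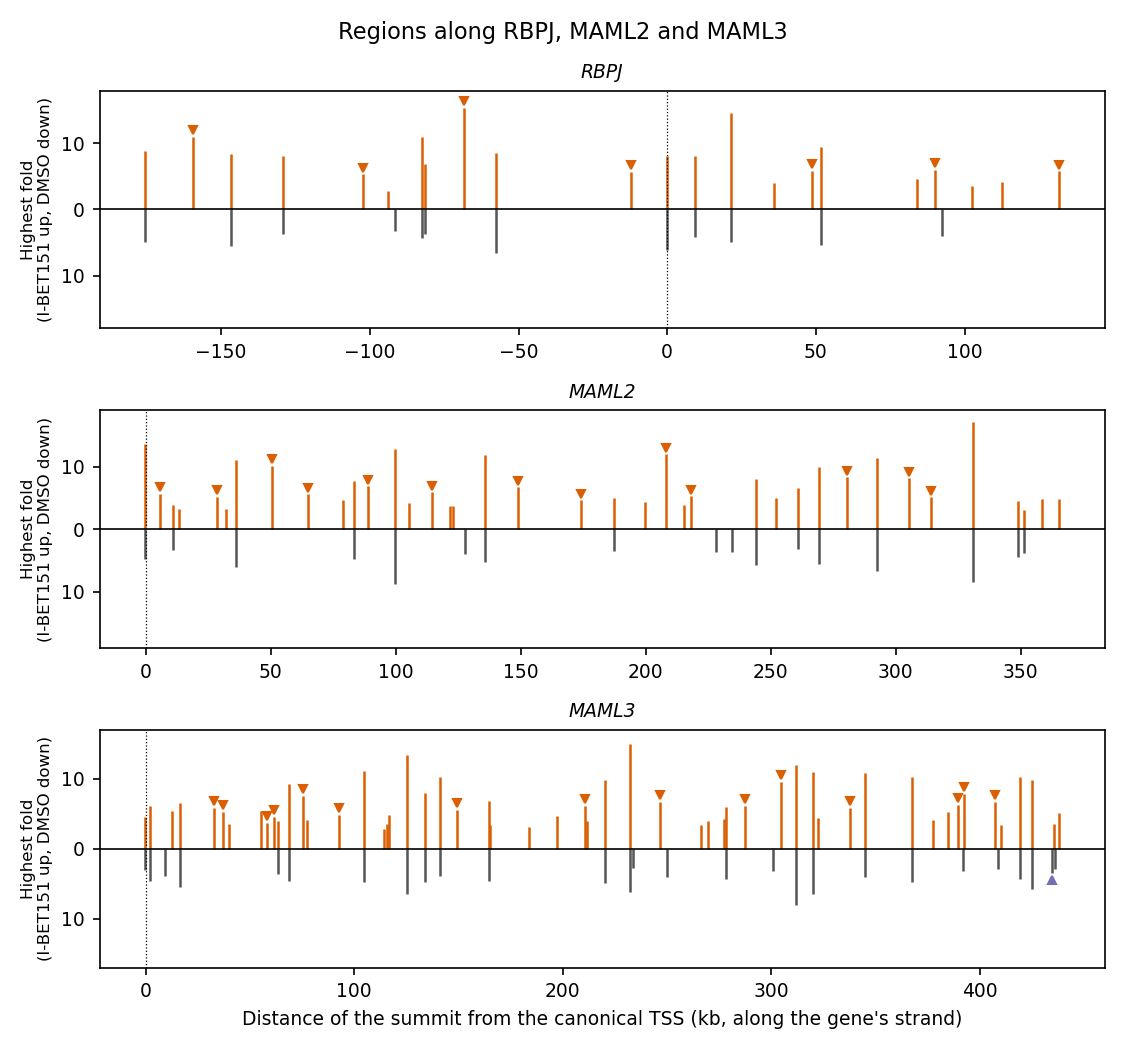
Regions along RBPJ, MAML2 and MAML3 by distance of their summit from the canonical TSS (x axis, kb along the strand of the gene, dotted line at the TSS), with the higher of the 2 folds with I-BET151 drawn upward (orange) and with DMSO downward (gray). Triangles pointing down mark gained regions, 7 at RBPJ, 13 at MAML2 and 15 at MAML3, and the triangle pointing up marks the lost region of MAML3.

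LFNG, the Fringe enzyme that lengthens O-fucose on Notch receptors, had the 1 promoter that was gained (7.07% of all protein-coding promoters were). Its promoter region (chr7:2519414-2519971, summit 92 bp before the TSS) had folds of 5.41 and 4.20 with 24 and 34 reads in the I-BET151 lists and was not called with DMSO. It ranked at the 46.4 and 18.2 percentile, so it was a weak to middling peak where it appeared. Another gained region 8.12 kb upstream (chr7:2511388-2511820), within 1 kb of the start of another coding transcript of LFNG, had folds of 5.07 and 4.58. Another lay 11.1 kb after the TSS, downstream of the gene, with folds of 4.02 and 3.14. The lost region of LFNG (chr7:2538626-2538971) lay 19.1 kb after the TSS, downstream of the gene, with folds of 3.47 and 3.84. No region of LFNG was called in all lists.

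MFNG, a paralogous Fringe enzyme, was called at its promoter only in I-BET151 replicate 2 (chr22:37486382-37487009, fold 5.38). It had 2 gained regions, in intron 1 (chr22:37480794-37481094, folds of 4.46 and 4.86) and downstream (chr22:37454723-37455683, folds of 5.83 and 6.42). The intronic region lay within 1 kb of the start of another coding transcript of MFNG. One region 15.5 kb upstream (chr22:37501274-37502790) was called in all lists with folds of 3.61 and 3.86 with DMSO and 8.12 and 8.84 with I-BET151 and a rank shift of 0.66 ± 0.39 (SE, limma adjusted p = 0.308). RFNG, the remaining Fringe enzyme, had no region within 1 kb of its canonical TSS in any list. Its 4 regions lay at the promoters of its neighbors, and the gained one (chr17:82030373-82031133, folds of 5.59 and 6.91) was at RAC3. The one called in all lists (chr17:82037127-82038056) was at DCXR, with folds of 5.26 and 4.56 against 10.9 and 10.6. Together the Fringe genes held 20 regions, 6 of them gained and 2 called in all lists.

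Among the modulators, NRARP and DTX1 had no region called in DMSO replicate 2. The promoter region of NRARP (chr9:137302386-137302711, summit 225 bp before the TSS) was called only in I-BET151 replicate 2, with a fold of 4.17. NRARP had 4 regions and 2 were gained, chr9:137293768-137294574 downstream with folds of 4.16 and 6.94, and chr9:137316261-137316702 upstream with folds of 5.22 and 3.04. DTX1 had no promoter region in any list, and 2 of its 11 regions were gained. They were chr12:113071622-113072436 in intron 2, with folds of 6.50 and 8.08, and chr12:113098285-113098802 just downstream of the gene, with folds of 5.98 and 7.69. DTX1 had 4 regions called in DMSO replicate 1, with folds of 3.77 or less.

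NUMB, which is inherited unequally in some dividing cells and restrains the receptor, had a strong promoter under both conditions. The promoter region (chr14:73457705-73459071, summit 203 bp before the TSS) had folds of 8.54 and 8.29 with DMSO and 12.5 and 13.2 with I-BET151, and percentiles between 94.9 and 97.5 in all 4 lists. The rank shift was −0.46 (SE 0.38, limma adjusted p = 0.473). NUMB had 2 gained regions, chr14:73314516-73314926 in intron 6 with folds of 6.24 and 8.74, and chr14:73261294-73261875 downstream with folds of 5.22 and 5.25.

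Over the 10 genes, 4 promoters were called in all 4 lists (53.5% of protein-coding promoters were), those of RBPJ, MAML1, MAML2 and NUMB. Both I-BET151 folds lay above both DMSO folds at all 4, as they did at 90.1% of all regions called in all 4 lists. The rank shifts, none of which passed the test, were positive at MAML2 and negative at the other 3.

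The 33 regions called in all lists allowed the strength of a region to be compared between conditions. All 33 had a higher mean log2 fold with I-BET151, and in 32 both I-BET151 folds lay above both DMSO folds (90.1% over all such regions). The change ranged from 0.35 to 1.40 with a median of 0.84, next to 0.83 over all 25627. Tested with limma on the log2 fold as deposited, 27 of the 33 were higher and none lower at an adjusted p below 0.05, while 76.5% of all such regions were higher and 0.0858% lower. A test of the rank of each region within its list takes this common shift away. With it, 0 of the 33 moved up and 0 moved down (limma, adjusted p below 0.05, the lowest being 0.0867), while 3.41% of all such regions moved up and 1.96% down. At an unadjusted p below 0.05, 6 of the 33 passed, 3 up and 3 down, while 24.9% of all did. The 3 that were up were the MAML1 downstream region, the MAML2 promoter and the deep intronic region of MAML3, and the 3 that were down were the RBPJ region 147 kb upstream and regions in intron 1 of MAML3 at 2.27 and 16.4 kb after its TSS. Rank shifts ranged from −0.93 to 1.32 with a median of −0.13, and 14 were positive and 19 negative.

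**Figure D2:**
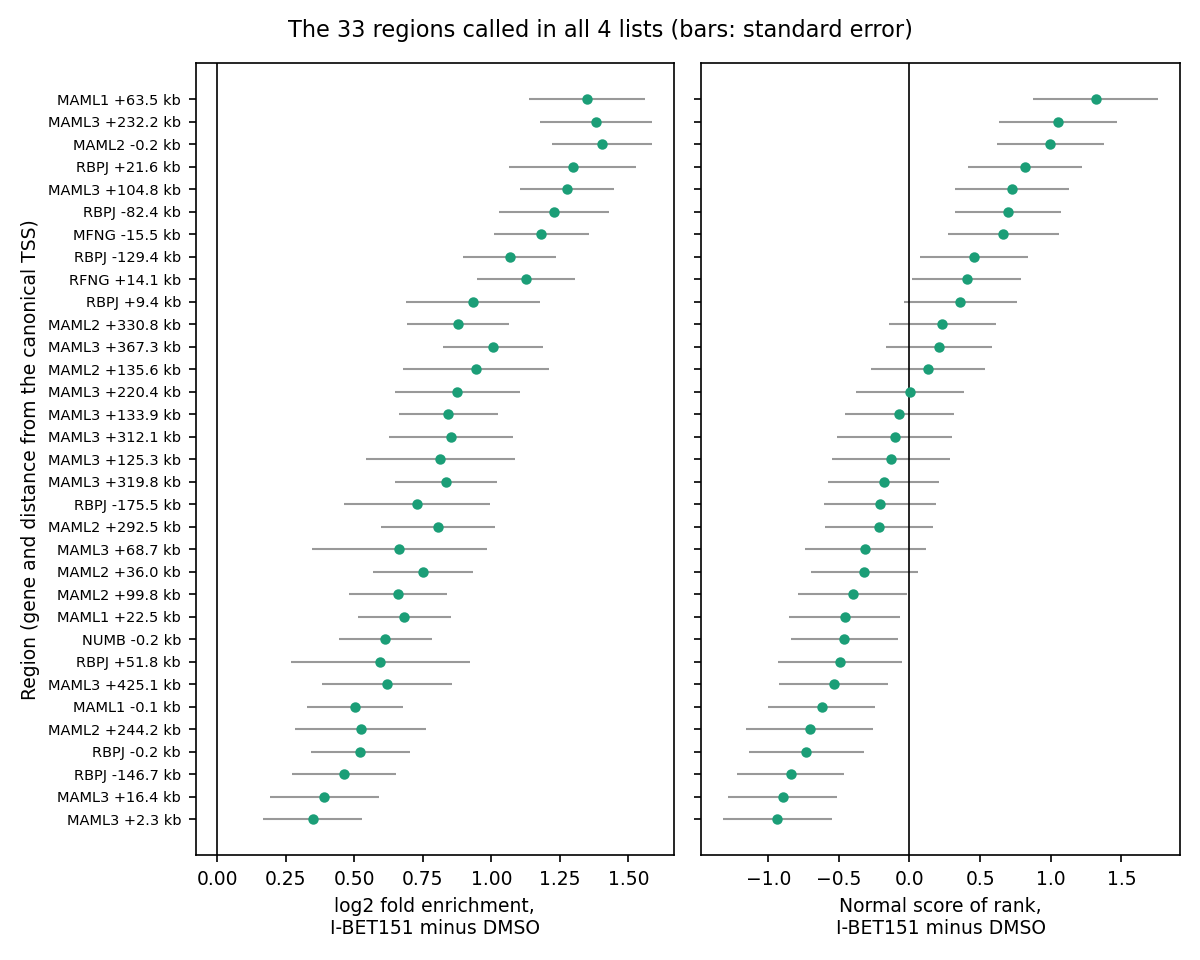
The 33 regions called in all 4 lists, ordered by rank shift, with the change in log2 fold enrichment (left, x axis) and in the normal score of the within-list rank (right, x axis), each as I-BET151 minus DMSO with its standard error. All points lie above 0 on the left (0.35 to 1.40), while they spread around 0 on the right (−0.93 to 1.32).

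A locus score, the mean percentile over all regions of a gene with 0 where a region was not called, summed up each gene. It was higher with I-BET151 for all 10 genes, by a median of 15.2 points, while over 18871 genes the median difference was 10.6 points and 82.9% were higher. In 9 of the 10 both I-BET151 scores lay above both DMSO scores, as they did for 51.1% of all genes, a share not matched for the number of regions per gene. With 2 libraries against 2, an exact permutation test cannot give a two-sided p below 0.33, so no score can reach significance.

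The difference between the means was 19.4 points at RBPJ, with 32.3 and 18.8 with DMSO (25.6 ± 9.52, SD, n = 2) and 41.3 and 48.6 with I-BET151 (44.9 ± 5.15). It was 12.6 points without DMSO replicate 2 and 0.42 with lists of equal length, so the order of the genes by difference was not stable. MAML1 scored 39.2 and 28.6 against 49.3 and 49.3, the highest of the 10 with I-BET151, MAML2 25.2 and 15.7 against 27.4 and 41.5, and MAML3 22.6 and 14.1 against 31.2 and 35.5. The coactivator genes stood above LFNG, NRARP and DTX1 in every list, but only MAML1 stood above all other genes in each. RFNG stood above MAML3 in both I-BET151 lists, and RFNG and MFNG above MAML2 in I-BET151 replicate 1. NUMB stood above MAML2 and MAML3 in DMSO replicate 1. LFNG scored 4.63 and 5.18 against 16.7 and 6.48, and I-BET151 replicate 2 was close to the DMSO libraries. Its difference of 6.68 points became 1.80 without I-BET151 replicate 1 and 15.7 without I-BET151 replicate 2. MFNG scored 21.6 and 5.44 against 30.5 and 33.3, and RFNG 21.3 and 15.4 against 35.0 and 37.6. NRARP scored 6.10 and 0 against 15.0 and 20.1, and DTX1 5.03 and 0 against 17.7 and 22.0, the lowest means with DMSO. NUMB was the gene whose conditions overlapped, with 26.4 and 10.9 against 26.1 and 40.7.

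With lists of equal length the scores of 6 genes were higher with I-BET151 and those of 3 lower, between −6.03 and 8.31 points (lower at MAML2, LFNG and NUMB), and NRARP had no region left. The spread between the 2 DMSO libraries was wide at several genes, as at MFNG (SD 11.4) and NUMB (SD 11), where DMSO replicate 2 was the lower one.

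The other genes of the Notch pathway gave a comparison from a list of 49 ligands, receptors, processing enzymes, corepressors and targets with 389 regions. Of these, 61 were gained (15.7%, against 17% of all merged regions) and 12 lost (3.09%, against 2.37%). They lay at 31 and 11 of the 49 genes, while 59.1% and 17.9% of all genes with a region had a gained and a lost one. The 10 genes differed from them in the gained share (26.1%), but no test of that difference was made, since regions of a locus are not independent. In the 49, the log2 fold of the 103 regions present in every list changed by a median of 0.80. Of the 103, 4 moved up and 4 down in rank at a limma adjusted p below 0.05, while 3.41% and 1.96% of all such regions did. Among those that moved up were regions at DLL3, NUMBL and POFUT1, and the 4 that moved down lay at HES1, DTX4, DNER and NCOR1. At HES1, the target repressor that keeps progenitors undifferentiated, that region was 5652 bp after the TSS with folds of 4.21 and 3.94 with DMSO and 3.16 and 4.66 with I-BET151. NUMBL, the paralog of NUMB, had a region with folds of 3.38 and 3.50 against 9.57 and 11.5. Promoters of the 49 were called in all lists in 32 cases (65.3%, against 53.5% of all protein-coding promoters) and gained in 6 (12.2%, against 7.07%).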

How the data were processed

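Open chromatin was measured by ATAC-seq in 2 libraries per condition, grouped by the sample labels. The authors mapped the reads with Bowtie2 (v2.2.5, genome build hg38), filtered out duplicates and mitochondrial reads, and ran MACS2 (v2.1.2) on each library alone, without a control. The deposited lists give each summit a fold enrichment, which is a ratio, (pileup + 1)/(background + 1), with a p-value and a q-value on the −log10 scale. The methods state a p-value of 1e-05, yet 7.54 to 10.9% of the deposited peaks are above it, and the q-value reaches 0.05. The shortest peaks are 200, 233, 200 and 256 bp (DMSO replicates 1 and 2, I-BET151 replicates 1 and 2), and whether the calling settings differed was not tested. The pileup in whole reads was solved from the fold and the p-value (tolerance 0.01 in −log10 p, 99.94 to 100% of peaks). Numbers of reads were derived from the genome background by the genome size that MACS2 assumes, and scale with it. They were also divided by the shortest peak of each list, taken as the length to which reads were extended. The methods state 200 bp for this length, and a shorter length would give more reads.

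Peaks on the autosomes, X and Y were merged at an overlap of 1 bp with Python 3.11.15, numpy 2.4.6, pandas 2.3.3 and scipy 1.17.1. Genes and canonical TSS were from GENCODE release 44 (20033 protein-coding genes), and a promoter region lies within 1 kb of the canonical TSS. Where a region held several peaks of a list, the strongest was used. Ranks by fold over the regions called in all 4 lists were turned into normal scores and compared with limma (v3.58.1, R 4.3.3), with Benjamini-Hochberg adjustment over all 25627. On simulated data, a change of 1 in the log2 fold of 200 regions was recovered in 194 with 5 other calls, and one of 0.5 in 5. The simulation gave every region the same spread, the median SD within conditions, so it does not measure recovery where the spread is larger. Small changes can be missed, and a region that does not pass is not shown to be unchanged.

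Named regions were the promoter region of each gene, up to 2 gained and 2 lost regions per gene with the highest lower fold, and regions past the rank threshold. Other regions with coordinates in the text were chosen after their values were seen, for their rank shift, level or motif word. Members and lists were chosen with earlier results of these data known. Sequences are from hg38. Alternatives were the replicate block, ranks by −log10 p, log2 fold with and without centering, −log10 p minimums of 5 and 10, equal list lengths, coverage of at least 50% of a region, flanks of 5 and 50 kb, and leaving out each library.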

Additional observations from a re-analysis of the deposited data

How the results depend on the processing

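Counts moved with the peaks used, and the cause was not tested beyond what each setting changes by construction. The 47 gained regions became 46 at −log10 p of at least 5, 45 at 50% coverage, 41 and 55 with flanks of 5 and 50 kb, 21 at −log10 p of at least 10, 8 with lists of equal length, and 49 to 85 with a library left out. The 2 lost regions became 1 at −log10 p of at least 5, 0 at 10, 1 and 4 with flanks of 5 and 50 kb, and 2 to 22 with a library left out. No region at the 10 genes shifted in rank (limma, adjusted p below 0.05), nor did any with the replicate block, ranks by −log10 p, centered log2 fold, −log10 p of at least 5, 50% coverage or a flank of 5 kb. There were 3 of 20 up at −log10 p of at least 10 (MAML2, MAML3 and MFNG; 840 of 13209 over all regions), 1 of 27 down with equal lists (MAML3; 725 of 18505), 1 up with a flank of 50 kb (RBPJ), 0 to 1 with a library left out, and 27 on log2 fold as deposited. Over all regions, the 1378 shifts became 35 with ranks by −log10 p, 19626 on log2 fold as deposited, 657 at 50% coverage, and 237 to 3504 with a library left out (237 without DMSO replicate 1, 483 without DMSO replicate 2, 3504 without I-BET151 replicate 2). With the replicate block they were 1637. Replicate numbers share only a number: deviations of same-numbered libraries correlated at −0.143. Crossing the numbers, added after seeing the data, gave 3552 shifts and 1 at the 10 genes.

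The promoter shifts of RBPJ and NUMB turned from negative to 0.047 and 0.19 with ranks by −log10 p. On log2 fold as deposited, those of RBPJ, MAML1 and NUMB were 0.52, 0.50 and 0.61. Locus scores stayed higher with I-BET151 for all 10 genes under the −log10 p minimums, percentiles by −log10 p, the flank of 50 kb and each left-out library. With a flank of 5 kb, 8 of 9 were higher and that of NRARP differed by −1.62 points. A region absent from a list did not pass the threshold of that list, and the lists give no value for it. The part of depth in absent calls was not tested.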
